A study of Mus musculus with 8 samples.

Results

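The genes described are the Notch receptors Notch1, Notch2, Notch3 and Notch4, the ligands Dll1, Dll3, Dll4, Jag1 and Jag2, and Hes1, a transcriptional repressor that Notch signalling induces. All 10 listed genes were found in the mouse gene table, of 16317 protein-coding genes that held at least 10 CpG cytosines read in every library. A gene's window was its annotated span (mm10) with 5 kb on each side, and the 10 windows held 1883 of the 1510385 cytosines covered by at least 10 reads in all 8 libraries. The assay was reduced representation bisulfite sequencing. It reads restriction fragments rich in CpGs from bisulfite-treated DNA, so that the percent of reads that keep a C gives the methylation level of a cytosine. The DNA came from 4 male C57 BL/6 mice that self-administered cocaine and 4 male C57 BL/6 mice of the saline self-administration group, with 1 library per mouse. The labels call the tissue the dissected dDG DGC layer, taken here to be dentate granule cells of the dorsal hippocampus with whatever cells lie among them. The labels used here give no age, dose or interval after the last session. Dissected tissue can hold several cell types, and a level is then an average over them.

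Notch receptors are cut after binding a Delta-like or Jagged ligand on a neighbouring cell, and the freed intracellular domain enters the nucleus and acts with the DNA-binding protein Rbpj on targets such as Hes1. In the dentate gyrus this pathway is known for holding neural stem cells of the subgranular zone in an undivided state, and in blood vessels Dll4 and Notch4 are known from endothelial cells. Start regions of most developmental genes are rich in CpGs, and such CpG islands are usually unmethylated whether or not the gene is transcribed in a tissue.

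In the 8 libraries, the coverage summed over listed cytosines came to between 87964952 and 141775386, and the median coverage within the 10 windows lay between 47 and 79 reads per cytosine. Saline 1 stood apart: at 201 member cytosines with a pooled level from 20% to 80%, 15.4% were all or none (0% or 100%), where the other 7 libraries had 0% to 6.97%. Of the granule cell and neuron markers, 4 of 6 had at least 5 common cytosines within 500 bp of the start. Those of Prox1, Dsp, C1ql2 and Dock10 read from 0.0638% to 0.922%. The astrocyte genes Gfap, Aldh1l1 and Slc1a3 read 45.02%, 33.8% and 0.432%, and the endothelial gene Cldn5 read 6.35%. The interneuron gene Sst read 6.5%, and the CA1 and CA3 genes Wfs1 and Grik4 read 0.611% and 0.196%, in the range of the granule cell markers, while none of the 6 oligodendrocyte and 4 microglia markers had a measured start. A methylation level at a start is no measure of expression, so these values do not settle which cells the tissue held.

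The start regions separated the genes into a large group with almost no methylation and a small group with some. The 250 bases before the start are printed for 6 genes because they span that range, from a start with few CpGs (Notch4, Dll3) to CpG-dense starts (Notch2, Jag2). Sequences are from RefSeq (GRCm38.p6, the coordinates of mm10), run 5′ to 3′ in the direction of the gene, and have the measured CpGs in capitals.
Notch4, chr17:34564045-34564294, plus strand: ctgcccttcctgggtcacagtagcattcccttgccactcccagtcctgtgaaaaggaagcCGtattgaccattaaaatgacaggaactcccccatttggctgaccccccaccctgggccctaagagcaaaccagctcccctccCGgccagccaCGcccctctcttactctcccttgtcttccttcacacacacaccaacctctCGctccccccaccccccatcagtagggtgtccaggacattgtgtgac
Dll3, chr7:28301786-28302035, minus strand: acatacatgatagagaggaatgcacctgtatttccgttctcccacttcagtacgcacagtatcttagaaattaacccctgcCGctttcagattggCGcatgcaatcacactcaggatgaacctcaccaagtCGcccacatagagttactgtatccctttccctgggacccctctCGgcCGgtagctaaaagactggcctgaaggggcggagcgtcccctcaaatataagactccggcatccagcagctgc
Notch1, chr2:26503823-26504072, minus strand: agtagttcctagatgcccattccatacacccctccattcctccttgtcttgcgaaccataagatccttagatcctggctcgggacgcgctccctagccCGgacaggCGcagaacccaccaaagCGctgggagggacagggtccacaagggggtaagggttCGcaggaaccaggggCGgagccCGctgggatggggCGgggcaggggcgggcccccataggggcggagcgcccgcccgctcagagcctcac
Notch2, chr3:98013288-98013537, plus strand: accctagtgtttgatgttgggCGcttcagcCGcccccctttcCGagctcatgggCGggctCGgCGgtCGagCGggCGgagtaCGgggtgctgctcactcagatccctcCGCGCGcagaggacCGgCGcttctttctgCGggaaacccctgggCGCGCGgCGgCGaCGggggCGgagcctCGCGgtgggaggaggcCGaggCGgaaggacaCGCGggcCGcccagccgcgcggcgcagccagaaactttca
Dll4, chr2:119325534-119325783, plus strand: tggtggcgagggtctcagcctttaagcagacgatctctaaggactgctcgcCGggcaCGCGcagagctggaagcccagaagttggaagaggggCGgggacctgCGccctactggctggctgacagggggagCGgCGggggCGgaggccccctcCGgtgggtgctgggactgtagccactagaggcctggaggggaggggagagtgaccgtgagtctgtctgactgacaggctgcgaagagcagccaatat
Jag2, chr12:112929496-112929745, minus strand: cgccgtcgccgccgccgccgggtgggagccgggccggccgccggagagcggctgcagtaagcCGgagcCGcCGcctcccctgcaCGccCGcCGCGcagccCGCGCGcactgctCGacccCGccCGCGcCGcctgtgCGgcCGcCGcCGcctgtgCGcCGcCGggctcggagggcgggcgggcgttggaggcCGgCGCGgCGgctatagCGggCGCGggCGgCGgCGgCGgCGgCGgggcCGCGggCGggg

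The Notch4 window held 4 CpGs, all measured, and its cytosines had a pooled level of 30.03%. For Dll3, 5 of 10 CpGs were measured and read 8.21%. In Notch1, 7 of 16 CpGs were measured and read 0.668%, in Notch2 30 of 34 read 0.941%, in Dll4 9 of 14 read 0.661%, and in Jag2 38 of 54 read 1.94%. The Notch4 and Dll3 windows had the fewest CpGs of the 6 and the highest levels, while Jag2, with the most CpGs, read above Notch1, Notch2 and Dll4. Over all genes, the start level was taken over 500 bp either side of the start, a wider window than the 250 bases of the values above. The 755 genes with 5 or fewer CpGs in those 250 bases had a median start level of 5.53%. The median was 0.559% in 3635 genes with 6 to 15 CpGs, the class of Dll3, and 0.474% in 5548 genes with 16 or more. Among the 755 genes with 5 or fewer CpGs, the class of Notch4, 40.7% had a start level over 20% and 49.4% one under 5%. In the class of Dll3, 7.15% of genes had a start level over 20% and 86.4% one under 5%. The letters TGGGAA, the core of the motif bound by Rbpj, searched on both strands (TTCCCA), were in none of the 10 upstream windows of the 9 genes with an entry, against 21.6% of 32817 windows of that length over all genes. This says only that these letters are not in those windows.

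Over 500 bp either side of the start, 6 of 9 genes had a pooled level under 5%, against 89.8% of 9938 protein-coding genes. Dll1 lay just above that limit, at a pooled level of 5.02%. Hes1 had no entry in the table of starts. Notch4 was the most methylated of the 9. Its start read 26.02%, 30.8%, 27.2% and 35.7% in cocaine 1 to 4, and 22.4%, 28.3%, 31.6% and 38.2% in saline 1 to 4. The groups overlapped over nearly their whole range, and 94.8% of all starts were lower than that of Notch4. The start of Dll3, a divergent ligand known to inhibit signalling within its own cell, read 5.39%, 4.90%, 6.90% and 10.8% in cocaine 1 to 4, and 10.9%, 12.8%, 6.67% and 12.5% in saline 1 to 4. Those groups overlapped as well. Dll1, a Delta-like ligand needed for normal lateral inhibition between neighbouring cells, read 4.46% ± 0.538 in cocaine mice and 5.54% ± 1.501 in saline mice (SD, n = 4 each). The starts of Notch1, Notch2, Notch3, Dll4, Jag1 and Jag2 had group means between 0.0283% and 2.20%.

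At 2 of the 9 starts, those of Notch3 and Jag1, every cocaine mouse was below every saline mouse, where 2.05% of all 9938 starts had the groups apart in that direction. Jag1, which encodes a Jagged ligand, was picked for description after its values were seen. At its start 1 of 2033, 3 of 2266, 0 of 1641 and 1 of 2242 reads were methylated in cocaine 1 to 4, against 10 of 2056, 10 of 1605, 15 of 2977 and 15 of 2493 in saline 1 to 4. The means were 0.0565% ± 0.0552 in cocaine mice and 0.554% ± 0.0686 in saline mice, a difference of -0.497 points (two-sided exact permutation p = 0.0286, the smallest that 4 against 4 mice can give). Any start with the groups apart has that p, so it adds nothing to their being apart. The 0 of 1641 in cocaine 3 allows a level of up to 0.183%, for counting error only. The groups were apart at the 18 cytosines nearest the Jag1 start but not at those on either side. At 15 cytosines inside the gene (chr2:137116081-137116228) cocaine mice read 0% to 0.273% and saline mice 0% to 0.576%. At 65 cytosines before the start (chr2:137116950-137117426), which reach beyond the window, cocaine mice read 0% to 0.339%. Saline mice read 0.0658% to 2.35% there. The start of Notch3, the receptor known from smooth muscle cells and pericytes of vessels, read 0.0994% to 0.633% in cocaine mice and 0.649% to 1.98% in saline mice. These levels lie in the range where reads that escaped bisulfite conversion also count as methylated, and the conversion rate is not given in the sources used here. Over the 8921 starts under 5%, the mean level was 0.544%, 0.657%, 0.569% and 0.901% in cocaine 1 to 4, and 0.949%, 0.899%, 0.678% and 0.670% in saline 1 to 4, with the 3 lowest means among the cocaine mice. The medians over those starts were not ordered by group, since saline 1 had the lowest, at 0.131%. Whether that moves the Jag1 and Notch3 values was not tested. The start of Dll4 went the other way, at 0% to 2.07% in cocaine mice and 0% to 0.113% in saline mice, and the groups overlapped. The long noncoding RNA Gm14207 overlaps that start.

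**Figure D1:**
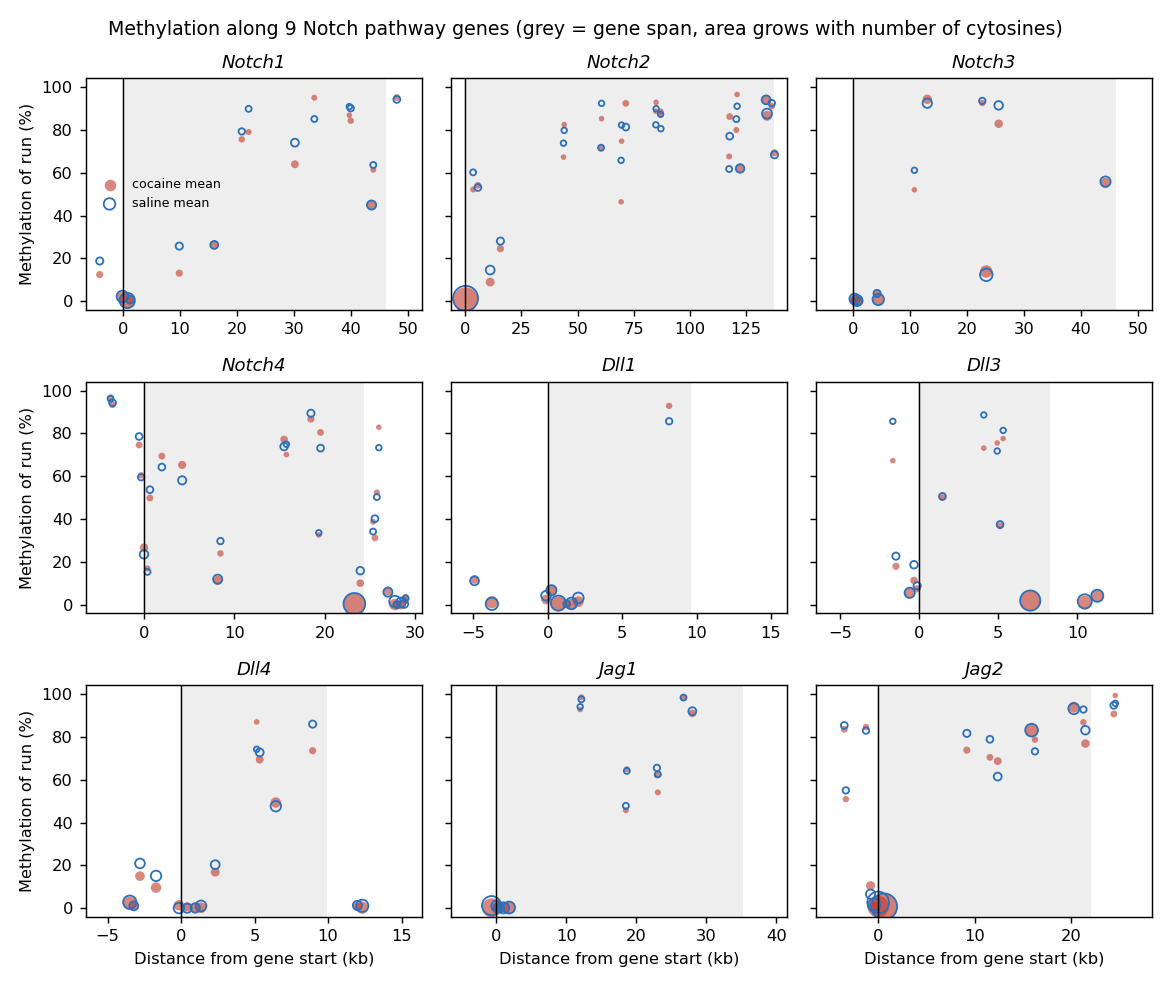
Methylation level of each run of neighbouring CpG cytosines (y axis, percent) by the distance of its middle from the gene start (x axis, kb, downstream to the right) in the 9 genes with a known start. Filled circles are cocaine means, open circles saline means (4 mice each), area grows with the number of cytosines, and grey marks the gene span. Notch4 and Dll3 have their run of most cytosines, near 0%, close to the far end of the gene, while their starts are methylated.

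Along the genes, cytosines were grouped into runs with gaps of at most 100 bp, which gave 157 runs, 109 touching a gene span and 48 in the flanks. Of these, 48 had a pooled level under 5%, which is 30.6% of them, against 17.5% of the runs in the windows of all protein-coding genes. Runs under 5% with at least 10 cytosines numbered 38. Of the 33 outside the Hes1 window, 20 had their middle within 2 kb of the start at the gene's outer end and 13 lay farther away, 4 of these inside the gene.

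Those 4 runs were in Notch3, Notch4, Dll1 and Dll3. In Notch4 a run of 85 cytosines at chr17:34587350-34587793, 23.3 kb after the start, read 0.275% ± 0.523 in cocaine mice and 0.393% ± 0.278 in saline mice, although the Notch4 start itself was methylated at 30.2%. In Dll3 a run of 73 cytosines at chr7:28294507-28295024, 7.02 kb after the start, read 2.06% ± 1.10 in cocaine mice and 1.93% ± 1.24 in saline mice. In Notch3 a run of 20 cytosines 4.43 kb after the start read 0.716% ± 0.459 in cocaine mice and 0.814% ± 0.319 in saline mice. No other annotated gene overlaps these 3 runs. The fourth, 17 cytosines 2.06 kb after the outer start of Dll1, read 1.44% ± 0.187 in cocaine mice and 3.17% ± 0.988 in saline mice. It lies less than 1 kb after another annotated start of Dll1, at base 15375823 of chromosome 17. In Notch3, Notch4 and Dll3, then, unmethylated CpG-dense sequence was not limited to the annotated start used here. The windows also take in neighbours: 24 of the 157 runs, methylated or not, overlap another annotated gene. The runs overlapping Pbx2 downstream of Notch4 and Selenov downstream of Dll3 had pooled levels under 5%. Those overlapping Gpsm3 downstream of Notch4 had pooled levels from 5.71% to 77.0%.

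Away from these dense runs, levels inside the genes ran from low to nearly full methylation. In Jag2 the tested runs inside the gene had pooled levels from 64.5% to 93.4%, while in Notch4 they went from 11.6% to 87.9%. In Notch1, the receptor most studied in neural stem cells, the run of 3 cytosines 20.9 kb after the start read 75.6% ± 4.89 in cocaine mice and 79.3% ± 10.9 in saline mice. The Notch1 run 16.05 kb after the start was lower than that in both groups, at 26.5% ± 10.4 in cocaine mice and 26.3% ± 10.2 in saline mice. In Notch2 a run of 10 cytosines near the far end read 94.2% ± 2.20 in cocaine mice and 94.0% ± 2.18 in saline mice. A Notch2 run of 5 cytosines 15.6 kb after the start read 24.5% ± 4.04 in cocaine mice and 28.1% ± 4.56 in saline mice. In Notch3, 25 cytosines at chr17:32143325-32143674, 23.4 kb after the start, read 13.9% ± 5.15 in cocaine mice and 12.3% ± 2.89 in saline mice. Hes1 was the least methylated of the 10 genes. In its window 8 of 11 runs were under 5%, and the run with the highest level, which lies past the upper end of the gene within the long noncoding RNA Gm32998, read 16.7% ± 2.50 in cocaine mice and 20.6% ± 5.80 in saline mice.

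A gene's level was the share of methylated reads summed over its window, which weights each cytosine by its reads. Over all 8 mice Notch3 averaged 24.7% ± 2.17, Notch4 23.3% ± 3.47, Notch2 17.98% ± 2.21, Jag2 16.4% ± 2.44 and Notch1 16.4% ± 2.59 (SD, n = 8). Below them came Dll4 at 10.8% ± 1.93, Jag1 at 7.38% ± 1.66, Dll3 at 5.50% ± 1.22, Dll1 at 3.47% ± 0.938 and Hes1 at 1.41% ± 0.283. Some neighbours in this order did not differ beyond the spread: Notch3 was above Notch4 in 5 of 8 mice, and Jag2 above Notch1 in 4 of 8. Dll4 was above Jag1, Dll3 above Dll1 and Dll1 above Hes1 in 8 of 8. The order of the upper genes depended on the weighting. With each cytosine counted equally Notch2 was the highest, at 29.7%, and Notch4 averaged 19.3%.

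**Figure D2:**
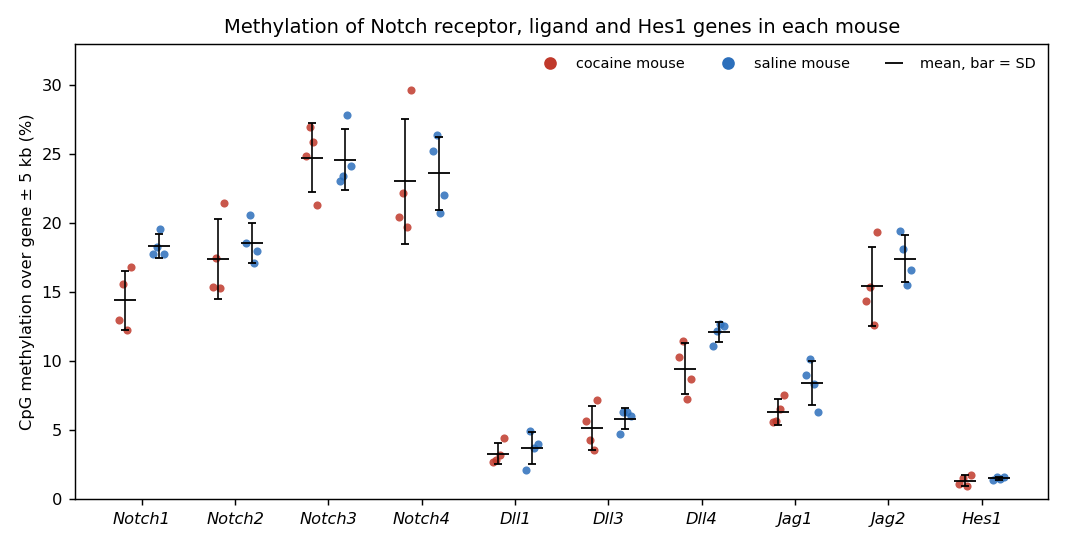
Methylation level over each gene's span with 5 kb on each side (y axis, percent of reads) for the 10 genes, in 4 cocaine mice (left of each pair) and 4 saline mice (right). Points are mice, horizontal marks the mean and bars the SD. In Notch1 all cocaine mice lie below all saline mice, and in the other 9 genes the groups overlap.

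The design asks whether mice that took cocaine differed in methylation from saline mice. At the level of whole genes Notch1 showed the largest difference of the 10. Its window read 13.0%, 15.6%, 12.3% and 16.8% in cocaine 1 to 4, and 17.8%, 18.3%, 19.6% and 17.7% in saline 1 to 4. All 4 cocaine mice were below all 4 saline mice. The means were 14.4% ± 2.15 and 18.3% ± 0.871 in cocaine and saline mice, a difference of -3.93 points with a standard error of 1.16. The quasi-binomial F test gave an unadjusted p of 0.0249 and an adjusted p of 0.915 over 13458 tested genes, so the gene was not called. The groups lay apart in this direction in 3.52% of all tested genes. Over all cytosines covered in all 8 libraries, the mean level was 37.1%, 37.5%, 36.5% and 38.2% in cocaine 1 to 4. In saline 1 to 4 it was 37.9%, 38.0%, 38.1% and 38.3%. Whether that moves the Notch1 values was not tested. With cytosines weighted equally the Notch1 difference shrank to -1.73 points (limma adjusted p = 0.641) and the groups overlapped, at 21.3% to 25.3% in cocaine mice and 24.4% to 24.8% in saline mice. The unadjusted p was above 0.05 without cocaine 1, cocaine 3 or saline 3, with differences of -3.94, -3.36 and -3.51 points. Without saline 1, the library with the most all-or-none values, the difference was -3.98 points.

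None of the 8 tested genes of the set was called, which took an adjusted p under 0.05 and a change of 5 points or more, and 0% of all tested genes did. Dll1 and Hes1 had pooled levels under 5% and were not tested. Notch1 was the only one of the 8 at an unadjusted p under 0.05 in this test, where 5.02% of all tested genes were, 4.7% with the lower mean in cocaine mice. By comparison limma on logit levels had 3 of the 8, and 5.54% of all tested genes. Dll4, the Delta-like ligand of vessel sprouting, read 10.3%, 11.5%, 7.26% and 8.72% in cocaine 1 to 4, and 11.1%, 12.1%, 12.7% and 12.6% in saline 1 to 4. Only cocaine 2 reached the range of the saline mice, and the difference was -2.68 points with a standard error of 0.991 (adjusted p = 0.915). Jag1 read 5.57%, 5.66%, 6.498% and 7.56% in cocaine 1 to 4, and 8.98%, 10.1%, 8.34% and 6.31% in saline 1 to 4. Saline 4 lay among the cocaine mice, and the difference was -2.11 points with a standard error of 0.924 (adjusted p = 0.915). Jag2 differed by -1.998 points with a standard error of 1.67, and Notch2 by -1.13 points with a standard error of 1.62. Notch4 differed by -0.580 points, Dll3 by -0.671 points and Notch3 by 0.155 points, each less than its standard error. Of the 8 genes, 7 had the lower mean in cocaine mice, as did 73.3% of all tested genes. Their median difference was -1.57 points, and that of all tested genes was -1.13 points.

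Single runs were compared next, to see whether a difference was concentrated at part of a gene. Of the 157 runs, 71 had at least 3 cytosines and a pooled level from 5% to 95% and were tested. The others were 41 runs with fewer cytosines and 45 with a pooled level under 5%. None of the 71 was called at an adjusted p under 0.05 with at least 10 points, and 0% of all 95079 tested runs were. At an unadjusted p under 0.05 stood 3 of the 71, which is 4.23%, against 5.67% of all tested runs. With limma on logit levels 2 of the 71 did, and 5.03% of all tested runs. All 3 were lower in cocaine mice, a direction shared by 4.58% of all tested runs at that p. They lie in the Notch1 window (2 runs) and in Dll4.

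The Notch1 run with the smallest p holds 5 cytosines at chr2:26493799-26494000, inside the gene and 9.92 kb after its start. It read 5.25%, 22.097%, 14.2% and 10.7% in cocaine 1 to 4, and 25.9%, 18.2%, 24.8% and 33.9% in saline 1 to 4. Cocaine 2 was above saline 2, and the other cocaine mice were below all saline mice. The means were 13.1% ± 7.06 in cocaine mice and 25.7% ± 6.47 in saline mice, a difference of -12.6 points with a standard error of 4.79 (unadjusted p = 0.00383, adjusted p = 0.875). All 5 cytosines averaged lower in cocaine mice, on 53.4 to 89.6 reads per cytosine and library. This is no separate support, since the run was picked by the p of its summed reads. Within the run the mice did not move together at every base. At base 26494000 on the minus strand cocaine 2 read 59.5% and cocaine 1 read 4.29%, a spread wider than that of the saline mice, which read 33.3% to 51.0%.

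The other Notch1 run, 5 cytosines at chr2:26507723-26507942, lies before the gene, 4.01 kb from the start. It read 11.3%, 12.4%, 8.83% and 17.0% in cocaine 1 to 4, and 20.7%, 18.5%, 19.1% and 16.8% in saline 1 to 4. Cocaine 4 and saline 4 were the only mice to overlap. The difference was -6.37 points with a standard error of 1.90 (unadjusted p = 0.0202, adjusted p = 0.875), on 131.2 to 212.8 reads per cytosine and library. Each of its 5 cytosines averaged lower in cocaine mice, again in a run picked by its summed reads. The Dll4 run holds 5 cytosines at chr2:119334662-119334803, 8.95 kb after the start and within 1 kb of the far end of the gene. It read 64.1%, 74.1%, 67.3% and 88.7% in cocaine 1 to 4, and 86.5%, 89.7%, 85.03% and 82.7% in saline 1 to 4. Cocaine 4 lay among the saline mice. The difference was -12.4 points with a standard error of 5.65 (unadjusted p = 0.0133, adjusted p = 0.875), on 21.4 to 66.8 reads per cytosine and library. It was -17.5 points without cocaine 4 (adjusted p = 0.776) and -9.29 points without cocaine 1 (adjusted p = 0.966). Without saline 1 the 3 runs differed by -12.6, -5.72 and -12.3 points, in the order given.

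**Figure D3:**
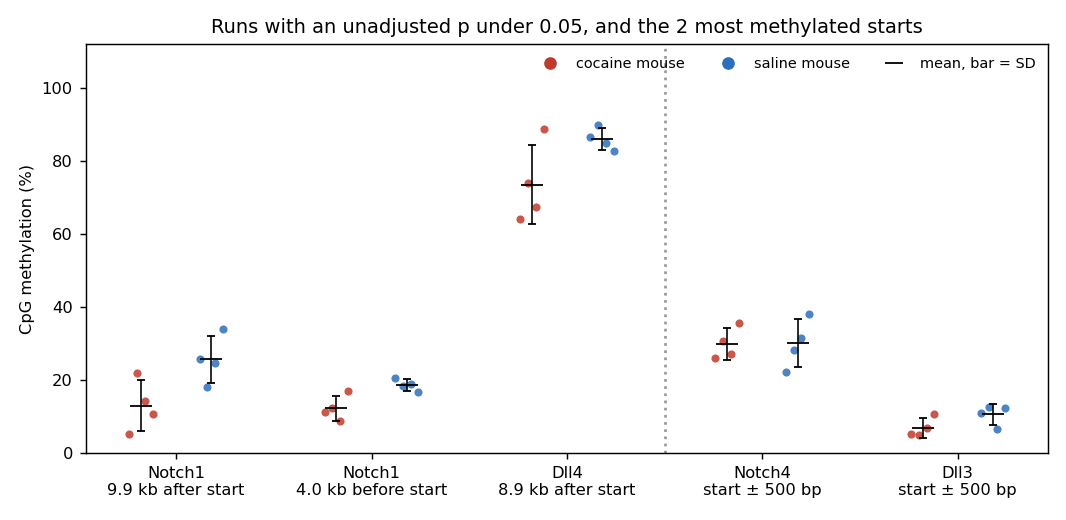
Methylation level (y axis, percent) in each of 4 cocaine mice (left of each pair) and 4 saline mice (right) for the 3 runs with an unadjusted p under 0.05 and for the starts of Notch4 and Dll3. Points are mice, horizontal marks the mean and bars the SD. At least 1 cocaine mouse lies within the saline range in each of the 5 pairs.

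In the other 8 genes the smallest p of a run was above 0.05, and the Hes1 run was given with its levels. In Notch2 it lay 11.1 kb after the start, where the noncoding RNA Gm40103 overlaps, at 8.92% ± 5.03 in cocaine mice and 14.5% ± 5.01 in saline mice. In Notch3 it lay 25.6 kb after the start, where the noncoding RNA Gm41568 overlaps, at 82.8% ± 10.3 in cocaine mice and 91.4% ± 8.14 in saline mice. That Notch3 difference of -8.57 points depended on single mice. It was -12.5 points without saline 1 (unadjusted p = 0.00188, adjusted p = 0.755). Without cocaine 1 it was -3.84 points (unadjusted p = 0.452, adjusted p = 0.980). For Notch4 it lay in the flank, partly overlapping Gpsm3, at 31.2% ± 5.75 in cocaine mice and 40.1% ± 9.97 in saline mice. For Dll3 it lay just before the start, at 11.3% ± 3.01 in cocaine mice and 18.7% ± 6.41 in saline mice. Jag2, the other Jagged ligand, read 76.9% ± 3.77 in cocaine mice and 83.1% ± 4.13 in saline mice in a run at its far end. The Jag1 run at 28.0 kb after the start read 91.0% ± 3.74 in cocaine mice and 92.0% ± 5.34 in saline mice. In Dll1 the run near the far end read 92.8% ± 3.49 in cocaine mice and 85.7% ± 13.8 in saline mice, and its difference of 7.17 points was 0.289 points without saline 1. With all 8 mice, each of these 7 runs had an adjusted p of 0.875 or above in the quasi-binomial test.

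Over all 71 tested runs the differences ran from -12.6 to 11.1 points. The runs with a lower mean in cocaine mice numbered 44, or 62.0%, against 61.6% of all tested runs, and the median difference was -0.968 points against -1.05 points. Both values were close to those of the whole table. In none of the 71 runs were the groups apart, in either direction, where 2.59% of all tested runs had every cocaine mouse below every saline mouse and 0.714% the reverse. Among the 86 runs that were not tested the groups lay apart in 5, all lower in cocaine mice, against 1.73% of all untested runs. These were a single cytosine in Notch2 and 4 runs under 5%, at the starts of Notch3 and Jag1, in Dll1, and in Pbx2 downstream of Notch4. By gene, the median difference over tested runs was -4.78 points in Notch1 (8 runs) and -4.49 points in Dll4 (6 runs), and between -2.20 and 0.624 points in the other 8 genes.

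**Figure D4:**
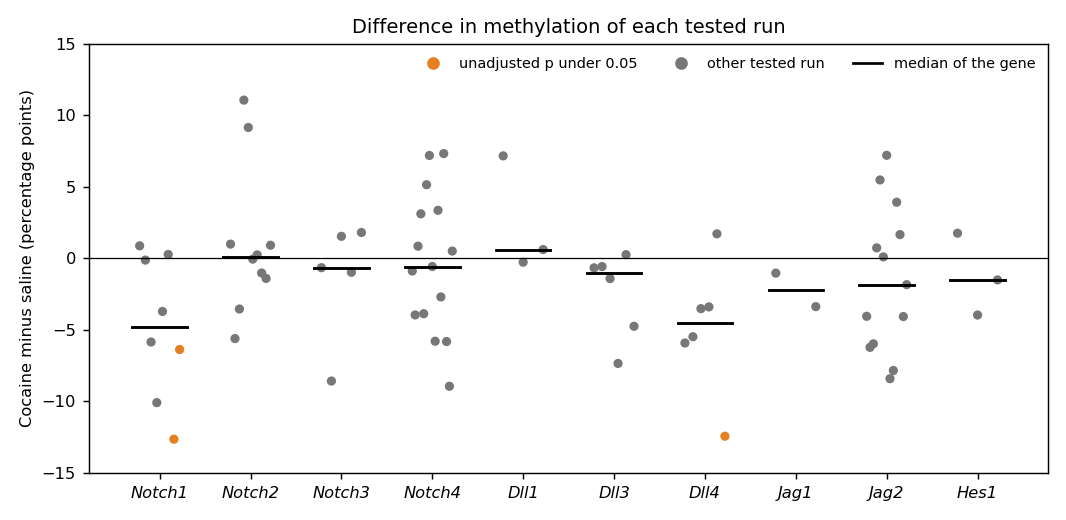
Difference in methylation between cocaine and saline mice (y axis, percentage points, cocaine minus saline) for each of the 71 tested runs, by gene. Orange points are the 3 runs with an unadjusted p under 0.05, grey points the others, and black lines the median of each gene. The orange points lie in Notch1 and Dll4, and both signs occur in all genes but Jag1.

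At single cytosines 491 of the 1883 had a pooled level from 5% to 95%, and 0 were called, with a smallest adjusted p of 0.771. Over all 666028 tested cytosines 0.00015% were called. At an unadjusted p under 0.05 stood 34 of the 491, which is 6.92%, against 5.56% of all tested cytosines. Of the 34, 22 were lower in cocaine mice, and 3.84% of all tested cytosines were lower at that p. By limma on logit levels 28 did, and 4.96% of all tested cytosines. Of the 50 tested in the Notch1 window 5 reached that p, all lower in cocaine mice. In Notch4 7 of 83 did, 2 of them lower, and in Jag2 6 of 78 did, 1 of them lower. The Notch1 cytosines are no separate support, since their reads also count in the Notch1 window. Those at bases 26493898 and 26494000 also lie in the Notch1 run inside the gene that was picked by its p.

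A list of 52 other genes of the pathway, covering nuclear partners, further Hes and Hey repressors, ligand and receptor modifiers and proteases, was described in the same way. In 44 of them at least 1 run was tested, 282 runs in all, and none was called. At an unadjusted p under 0.05 stood 14 runs of 9 genes, 13 of them lower in cocaine mice. The 14 are 4.96% of the 282 runs, against 5.67% of all tested runs, 4.58% with the lower mean in cocaine mice. Hes5, a Notch-induced repressor known from neural stem cells, read 37.8%, 25.2%, 28.7% and 40.7% in cocaine 1 to 4, and 42.8%, 39.9%, 50% and 51.1% in saline 1 to 4, at a run of 7 cytosines. Cocaine 4 alone overlapped the saline mice. Dlk1, which encodes a non-canonical ligand-like protein, read 22.4% ± 3.09 in cocaine mice and 30.02% ± 3.34 in saline mice. Hes7, a repressor known from the segmentation clock, read 54.4% ± 5.29 in cocaine mice and 62.7% ± 3.33 in saline mice. Kat2a, an acetyltransferase gene, had the higher mean in cocaine mice, at 30.5% ± 4.15 and 19.8% ± 4.95 in cocaine and saline mice. Each of these 4 runs had an adjusted p of 0.875. As gene windows 1 of 41 tested pathway genes, Snw1, had an unadjusted p under 0.05, where 5.02% of all tested genes did. Snw1 read 18.3% ± 3.75 in cocaine mice and 24.2% ± 5.41 in saline mice (adjusted p = 0.915).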

How the data were processed

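Per the submitters' processing notes, reads were processed with bcl2fastq and Bismark 22.1 against mm10. Trimming, removal of duplicate reads and conversion rates were not given in the sources used here. The deposited level of each cytosine is a fraction from 0 to 1 (headed as a percent) and was multiplied by 100, and the deposited coverage is a read count, 10 or more per cytosine. Level times coverage was whole within 5e-07 times the coverage, so methylated reads were recovered by rounding. Strands were kept apart. Mouse genes came from a RefSeq table of GRCm38.p6, and starts and strands from a RefSeq promoter table, whose CpGs matched the deposited positions.

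Reads were summed over runs, gene windows or cytosines, and compared by quasi-binomial regression on group over the whole table, with dispersions moderated by limma 3.58.1 (squeezeVar, trend on coverage, floor of 1), an F test and Benjamini-Hochberg adjustment. The test was checked on simulated reads. A single value was compared by an exact permutation test over 70 assignments. Intervals and limits for a count of 0 cover counting error only, since no molecular identifiers are given. The genes, lists and tests were chosen with earlier results of these data known. All 10 genes were named, with their runs of smallest p, of most cytosines and at an unadjusted p under 0.05, and 5 pathway genes by smallest run p, of which 1 is not reported here. Library pairs differed by a mean chi-square of at least 4.68 per run, so all 8 were kept. Same-numbered cocaine and saline mice did not deviate together (correlations from -0.0169 to 0.0771). Alternatives were another coverage minimum, level filter, test, block, run definition and flank, and each library left out.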

Additional observations from a re-analysis of the deposited data

Results flagged for a closer look

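Of 62 groups of 4 mice examined, for the 10 gene levels and the 21 named runs, 3 held a mouse far from the other 3, where chance alone would flag about 3.1. Saline 1 had the lowest Dll3 window level, at 4.70%, against 6.03% to 6.30% in the other saline mice. Saline 1 was also low in the Dll1 run of 3 cytosines near the far end of the gene, at 65.0%, against 91.6% to 93.8%. Cocaine 1 had the highest level in the run of 85 cytosines near the far end of Notch4, at 1.06%, against 0% to 0.0220% in the other cocaine mice. Saline 1 is the library with the largest share of all-or-none values, and the part of that in its 2 flagged values was not tested.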

How the results depend on the processing

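No run, gene or cytosine of the set was called under any of the 18, 14 and 13 alternatives tried for them. Counts at an unadjusted p under 0.05 ranged from 2 to 8 for runs, 0 to 3 for genes and 26 to 41 for cytosines, around 3, 1 and 34. Over the same alternatives the share of all tested runs at that p ranged from 4.88% to 6.19%. The share ranged from 3.04% to 16.1% for all tested genes and from 2.98% to 6.40% for all tested cytosines. The 3 genes came by limma, with 5.54% of all genes, and without cocaine 4, with 16.1% of all genes. Without a filter on level 8 of 116 runs reached it, and 6.06% of all runs. With the replicate number as a block the counts were 5 runs, 1 gene and 40 cytosines, and 0 calls, but the shared numbers are not known to pair the mice. With that block 5.94% of all tested runs, 4.89% of all tested genes and 6.40% of all tested cytosines reached that p. The Notch3 run 25.6 kb after the start then had an unadjusted p of 0.00173 (adjusted p = 0.802). The differences of the 3 runs and of the Notch1, Dll4, Jag1, Jag2 and Notch2 windows kept their sign under all alternatives tried for them, but not their size. With cytosines weighted equally Dll4 differed by -1.50 points, Jag1 by -0.510, Jag2 by -0.579 and Notch2 by -0.686. With 1 mouse left out, Notch2 ranged from -2.49 to -0.406 points and Jag2 from -3.32 to -1.06 points. For tested runs and genes 11 recomputed differences changed sign, none of them called. With 1 mouse left out, the Notch3 window ranged from -0.593 to 1.36 points, the Notch4 window from -2.74 to 0.519 points, the Notch3 run of 25 cytosines from -0.985 to 2.69 points and the Jag1 run from -3.50 to 0.745 points. At a coverage minimum of 20 reads that Jag1 run, then of 3 cytosines, differed by 5.64 points. The cause was not tested. With 4 mice per group the spread between mice limits what can be seen: the Notch1 run inside the gene, with SDs of 7.06 points in cocaine mice and 6.47 points in saline mice, had a standard error of 4.79 points.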
